A study of Mus musculus with 8 samples.

Results

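The class II antigen presentation genes described here are 10 genes chosen by name: the surface chains H2-Aa, H2-Ab1 and H2-Eb1, their chaperone Cd74, the peptide-loading genes H2-DMa, H2-DMb1, H2-Oa and H2-Ob, the lysosomal protease gene Ctss and the transactivator gene Ciita. All 10 were found by symbol among the 49671 genes of the count table. RNA came from total back skin, shaved, of mice aged 8 weeks. The Flg genotype is given as ko/ko for 4 libraries (knockout) and as wt/wt for 4 (wild type), Flg being the gene of filaggrin, a protein of the epidermal barrier. The question posed was what loss of Flg does to gene expression in whole skin. The labels give neither the strain, the allele nor the sex, and do not say outright that each library is a separate mouse, so p-values measure the spread between these libraries. No batch is given by the labels. They name a strand-specific library kit for the samples and a SMART protocol for the series, and which of them applied is not settled here.

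Class II molecules carry peptides from the endosomal pathway to the surface of antigen-presenting cells, where CD4 T cells read them. An alpha and a beta chain pair in the endoplasmic reticulum and bind the invariant chain, the product of Cd74. Proteases such as cathepsin S cut the invariant chain down to a small fragment, H2-DM exchanges that fragment for peptide, and H2-DO holds H2-DM back. CIITA switches on the genes of the chains, of the invariant chain and of H2-DM through the factors RFX, CREB and NF-Y at a conserved promoter module. Interferon gamma induces Ciita in many cell types. In mouse skin the cells that make class II are mainly Langerhans cells, dermal dendritic cells and some macrophages.

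Depth was 18483242 to 38545957 counts in the knockout libraries and 23817186 to 34263154 counts in the wild-type libraries. CPM are counts scaled to library size with TMM factors, and TPM are counts per exon length scaled to library size, used wherever 2 genes are compared. Flg stood at 27.0, 24.7, 24.1 and 22.3 CPM in knockout and 66.9, 46.5, 56.1 and 66.6 CPM in wild type, so each library fell on the side its label gives. The 12 keratinocyte markers summed to 12711 to 14547 CPM in knockout and 14681 to 16497 CPM in wild type, with none at 0, so the epidermis was present in each library. Of the 12 keratinocyte fold changes 11 were below 0 and 0 called, and of 21 white adipocyte fold changes 18 were above 0 and 1 was called, that of the growth hormone receptor gene Ghr. Of all 19099 genes tested 53.3% were below 0 and 1.41% were called. The part of these marker lists in the results below was not tested. In bulk tissue, fewer class II cells and less class II RNA per cell cannot be told apart.

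The promoter stretches are shown because the class II module can be read in them. They are those of the reference genome, and whether these mice carry the same sequences was not tested. The module holds an X box, read by RFX and CREB, and a Y box, an inverted CCAAT element read by NF-Y. RefSeq gives promoter windows, 250 bases before and 50 bases from the start site on, for 7 members, and 5 of them hold letters of both boxes in order. Capitals mark GNAAC within the X box and TGATTGG as the Y box, each line running 5′ to 3′.
H2-Aa (GRCm38.p6 chr17:34287855-34287916, minus strand): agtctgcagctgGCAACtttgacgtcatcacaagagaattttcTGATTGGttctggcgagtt
H2-Eb1 (GRCm38.p6 chr17:34305764-34305824, plus strand): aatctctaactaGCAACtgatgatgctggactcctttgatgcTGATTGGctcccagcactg
H2-DMb1 (GRCm38.p6 chr17:34153085-34153146, plus strand): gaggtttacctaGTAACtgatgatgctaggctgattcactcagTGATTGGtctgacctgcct
H2-Ob (GRCm38.p6 chr17:34238806-34238864, plus strand): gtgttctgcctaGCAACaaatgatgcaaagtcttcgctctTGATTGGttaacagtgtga
H2-Oa (GRCm38.p6 chr17:34092291-34092352, plus strand): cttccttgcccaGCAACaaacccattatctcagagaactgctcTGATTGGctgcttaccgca

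Between the marked GNAAC and TGATTGG lay 26 bases in H2-Aa, H2-DMb1 and H2-Oa, 25 in H2-Eb1 and 23 in H2-Ob. The letters searched were chosen with these sequences in view, and a match is a description, not a measured binding site. Searched on both strands, TGATTGG occurred in 7.82% of all 32851 promoter windows, and GNAAC followed by TGATTGG after 15 to 35 bases in 0.569%. H2-Eb2, a class II beta gene that is not a member, holds the same pair and is shown because its level is set against that of H2-Eb1 below.
H2-Eb2 (GRCm38.p6 chr17:34325531-34325591, plus strand): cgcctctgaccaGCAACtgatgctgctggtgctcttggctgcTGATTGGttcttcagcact
The window of Ctss held neither TGATTGG nor the pair. The H2-DMa windows (2) held neither, but their start sites lie 9664 and 12350 bases from the start of H2-DMa in the count table.

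Transcripts of Cd74 and of the surface chains were abundant in both genotypes, and no member passed the test between the genotypes. With edgeR's quasi-likelihood test over 19099 genes, 0 of 10 members were called at an adjusted p under 0.05, where 270 genes (1.41%) were called in all. That total was between 11, without knockout replicate 2, and 1325, without wild-type replicate 3, and with any library left out 0 members were called. At an unadjusted p under 0.05 there was 1 member, H2-DMb1, against 19.5% of all genes tested. That count was 0 without knockout replicate 1, 2 or 4, without wild-type replicate 2 or 3 or with an adipocyte covariate, 2 without knockout replicate 3 and 3 without wild-type replicate 1. DESeq2 and limma voom also called 0 members, where they called 1185 and 2535 of all genes. All 10 members overlapped between genotypes, while 11.5% of genes did not overlap. The fold changes lay below 0 for 8 of 10 members, with a median of -0.19 on the log2 scale, against 53.3% of genes below 0 and a median of -0.02 over all genes. With 1 library left out, 6 to 9 members lay below 0 and their median was between -0.28 and -0.10. For 9 of 10 members the 95% interval did not reach a 2-fold change in either direction. H2-Oa, the least abundant, was the exception.

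**Figure D1:**
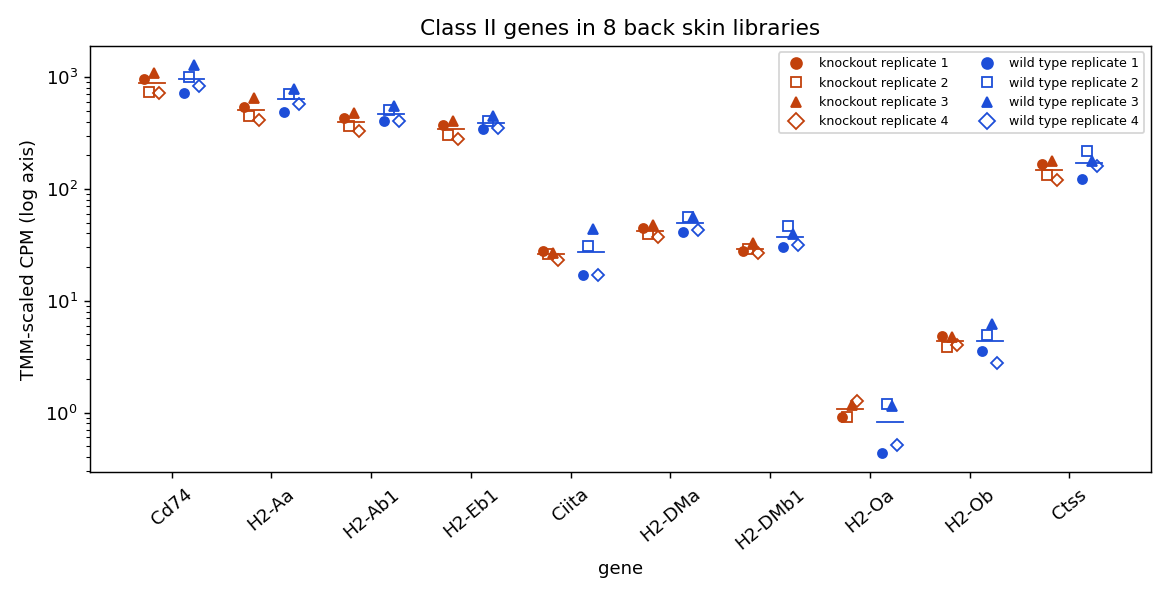
TMM-scaled CPM on a log axis of the 10 class II genes in each library, knockout left of wild type, with a bar at each group's mean (n = 4 each). The groups overlap for every gene, and wild-type replicates 1 and 4 lie below wild-type replicates 2 and 3 for every gene.

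Cd74, the gene of the invariant chain (ENSMUSG00000024610, chromosome 18, positions 60803848 to 60812646, plus strand, mm10), was the most abundant member per length. It had 962, 739, 1092 and 722 CPM in knockout replicates 1 to 4, against 728, 1002, 1276 and 837 CPM in wild-type replicates 1 to 4. The knockout libraries 3 and 1 were high and 4 and 2 low, and the 4 lay within the wild-type range except for replicate 4, just below it. The log2 fold change was -0.13 ± 0.19 (SE; 95% interval -0.55 to 0.29; edgeR adjusted p = 0.74). Without wild-type replicate 3 it was 0.04.

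The alpha chain gene H2-Aa (ENSMUSG00000036594, chromosome 17, positions 34282744 to 34287827, minus strand) had 539, 446, 656 and 412 CPM in knockout replicates 1 to 4, against 491, 708, 779 and 576 CPM in wild-type replicates 1 to 4. Knockout replicates 2 and 4 were below every wild-type library, and the other two lay within the wild-type range. Its log2 fold change was -0.31 ± 0.18 (SE; 95% interval -0.70 to 0.07; edgeR adjusted p = 0.351). The beta chain gene H2-Ab1 (ENSMUSG00000073421, chromosome 17, positions 34263209 to 34269418, plus strand), the partner of H2-Aa, had 428, 364, 478 and 330.1 CPM in knockout replicates 1 to 4, against 402, 504, 554 and 407 CPM in wild-type replicates 1 to 4. It ordered the libraries of each genotype as H2-Aa did, at a log2 fold change of -0.22 ± 0.14 (SE; 95% interval -0.54 to 0.09; edgeR adjusted p = 0.417). H2-Eb1 (ENSMUSG00000060586, chromosome 17, positions 34305877 to 34316199, plus strand), the beta chain of the second surface molecule, had 375, 302, 408 and 279 CPM in knockout replicates 1 to 4, against 342, 405, 450.5 and 349.5 CPM in wild-type replicates 1 to 4. Again knockout replicates 2 and 4 were the lowest of all 8, and the fold change was -0.18 ± 0.14 (SE; 95% interval -0.48 to 0.12; edgeR adjusted p = 0.499).

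H2-Ea, the alpha chain gene that pairs with H2-Eb1, is not a member, but the level of the pair turns on it. In the reference strain C57BL/6 a deletion in its promoter silences it, and the annotation used here lists it as H2-Ea-ps, a pseudogene (ENSMUSG00000036322, chromosome 17, positions 34342933 to 34344643, minus strand). In these libraries it was strongly expressed, at 334, 302, 394 and 244 CPM in knockout replicates 1 to 4, against 235, 468, 437 and 274 CPM in wild-type replicates 1 to 4. Counts ran from 5635 to 12701 in knockout and from 6911 to 11850 in wild type. Per length it stood at 1488 ± 249 TPM in knockout and 1609 ± 590.3 TPM in wild type (SD, n = 4 each), and in every library above H2-Eb1. The ratio of H2-Ea to H2-Eb1 in TPM was 1.61 ± 0.101 in knockout and 1.55 ± 0.359 in wild type (SD, n = 4 each), and its fold change between genotypes was -0.15 ± 0.23 (SE; 95% interval -0.66 to 0.36; edgeR adjusted p = 0.75). H2-Ea RNA was thus present in all 8 libraries. The strain is not in the labels, and how many reads of class II alleles that differ from the reference were lost in alignment was not tested. By contrast H2-Eb2, the neighbouring beta gene that shares the promoter module in the reference genome, had 16, 6, 5 and 5 counts in knockout. In wild type H2-Eb2 had 7, 2, 6 and 7 counts, and its counts were too few to be tested.

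**Figure D2:**
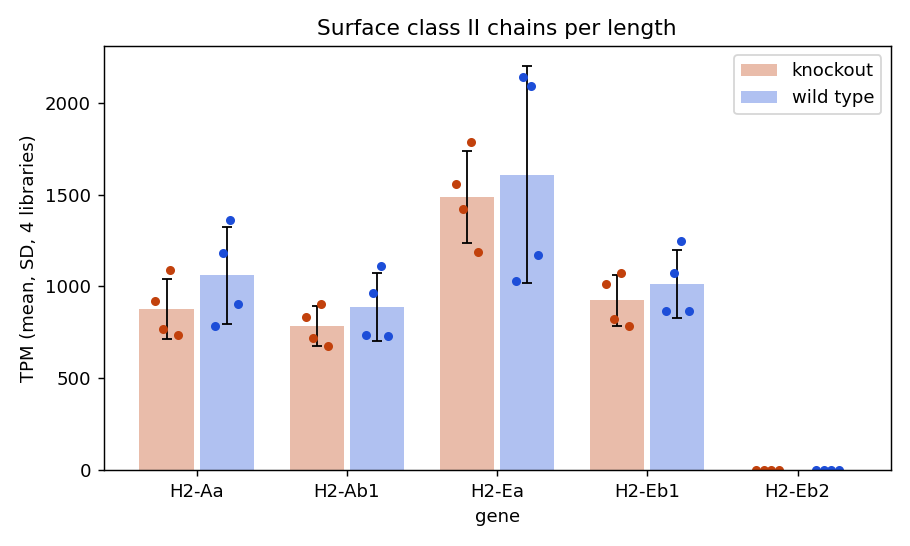
TPM of 5 class II surface chain genes, knockout left of wild type; bars are means, lines the SD and points the 4 libraries of each group. H2-Ea lies above H2-Eb1 in every library, and H2-Eb2 lies near 0.

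The H2-DM genes encode the 2 chains of the peptide exchange factor. H2-DMa (ENSMUSG00000037649, chromosome 17, positions 34135182 to 34139101, plus strand) had 45.2, 39.2, 47.6 and 37.4 CPM in knockout replicates 1 to 4, against 41.1, 56.5, 55.9 and 43.0 CPM in wild-type replicates 1 to 4. The knockout libraries overlapped the lower wild-type pair, replicates 1 and 4, and lay below the upper pair, with a fold change of -0.21 ± 0.13 (SE; 95% interval -0.49 to 0.07; edgeR adjusted p = 0.383). H2-DMb1 (ENSMUSG00000079547, chromosome 17, positions 34153072 to 34160230, plus strand) had 27.9, 28.7, 32.5 and 26.7 CPM in knockout replicates 1 to 4, against 30.4, 46.8, 39.6 and 31.4 CPM in wild-type replicates 1 to 4. In the edgeR fit it came closest to a call, with knockout libraries 1, 2 and 4 below every wild-type library and replicate 3 between the wild-type pairs. Its fold change was -0.35 ± 0.14 (SE; 95% interval -0.66 to -0.04; edgeR adjusted p = 0.206), and the unadjusted p was 0.0285. That p stayed under 0.05 in 3 of 8 fits with a library left out, without knockout replicate 3 or wild-type replicate 1 or 4. Limma voom gave -0.23 with an adjusted p of 0.183. H2-DMb2, a second beta chain gene beside it and similar in sequence, had 24.6, 24.9, 25.4 and 21.1 CPM in knockout replicates 1 to 4, against 23.5, 35.5, 31.2 and 23.1 CPM in wild-type replicates 1 to 4, and a fold change of -0.24 ± 0.14 (SE; 95% interval -0.56 to 0.08; edgeR adjusted p = 0.391). Reads shared by the 2 beta genes could have been split or dropped in counting, so their separate levels carry that uncertainty. The ratio of H2-DMb2 to H2-DMb1 in TPM was 0.720 ± 0.0443 in knockout and 0.663 ± 0.0195 in wild type (SD, n = 4 each).

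The H2-DO genes, whose product restrains H2-DM and is best known from B cells, were the rarest members. H2-Ob (ENSMUSG00000041538, chromosome 17, positions 34238903 to 34245907, plus strand) had 4.87, 3.85, 4.71 and 4.04 CPM in knockout replicates 1 to 4, against 3.55, 4.94, 6.24 and 2.77 CPM in wild-type replicates 1 to 4. The 4 knockout libraries all lay inside the wild-type range, and the fold change was 0.01 ± 0.23 (SE; 95% interval -0.51 to 0.52; edgeR adjusted p = 0.992). H2-Oa (ENSMUSG00000024334, chromosome 17, positions 34092340 to 34095234, plus strand) rested on 35, 17, 28 and 34 counts in knockout, against 15, 30, 27 and 13 counts in wild type. On the CPM scale it had 0.921, 0.910, 1.17 and 1.27 CPM in knockout replicates 1 to 4, against 0.433, 1.19, 1.14 and 0.515 CPM in wild-type replicates 1 to 4. The wild-type libraries formed a low pair, 1 and 4, and a high pair, 2 and 3, and the knockout libraries lay above the low pair. The fold change was 0.41 ± 0.34 (SE; 95% interval -0.34 to 1.16; edgeR adjusted p = 0.536). With limma voom H2-Oa was the member closest to a call, at 0.87 (adjusted p = 0.0738), and over all alternatives its log2 fold change was between 0.18 and 0.87. BC051537 lies over H2-Oa on the other strand, with at most 2 counts in any library. H2-DMa exceeded H2-Ob in TPM by 18.7 ± 0.975 fold in knockout and 22.8 ± 5.21 fold in wild type (SD, n = 4 each).

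Ctss, the gene of cathepsin S, which makes the late cuts in the invariant chain (ENSMUSG00000038642, chromosome 3, positions 95526786 to 95556403, plus strand), had 166, 133, 176 and 119 CPM in knockout replicates 1 to 4, against 124, 219, 179 and 161 CPM in wild-type replicates 1 to 4. Its order in wild type was led by replicate 2, not 3, and the fold change was -0.20 ± 0.18 (SE; 95% interval -0.59 to 0.19; edgeR adjusted p = 0.565). Without wild-type replicate 2 it was -0.05. Ctss starts 2.25 Mb from Flg on the same chromosome. Ciita (ENSMUSG00000022504, chromosome 16, positions 10488178 to 10527564, plus strand), which controls the class II chain genes, had 27.7, 26.3, 27.0 and 23.04 CPM in knockout replicates 1 to 4, against 17.04, 30.8, 44.0 and 16.9 CPM in wild-type replicates 1 to 4. The knockout libraries were close together, between the low wild-type pair 1 and 4 and the high pair 2 and 3, and the fold change was -0.06 ± 0.28 (SE; 95% interval -0.69 to 0.57; edgeR adjusted p = 0.931). Without wild-type replicate 3 the fold change was 0.28 and without wild-type replicate 2 it was 0.01, neither called. Dexi overlaps Ciita on the other strand, with 111 shared exon bases of the 5254 of Ciita and 356 to 734 counts in knockout against 516 to 757 in wild type. The strand setting used for counting was not stated, so reads of the shared bases cannot be told apart.

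**Figure D3:**
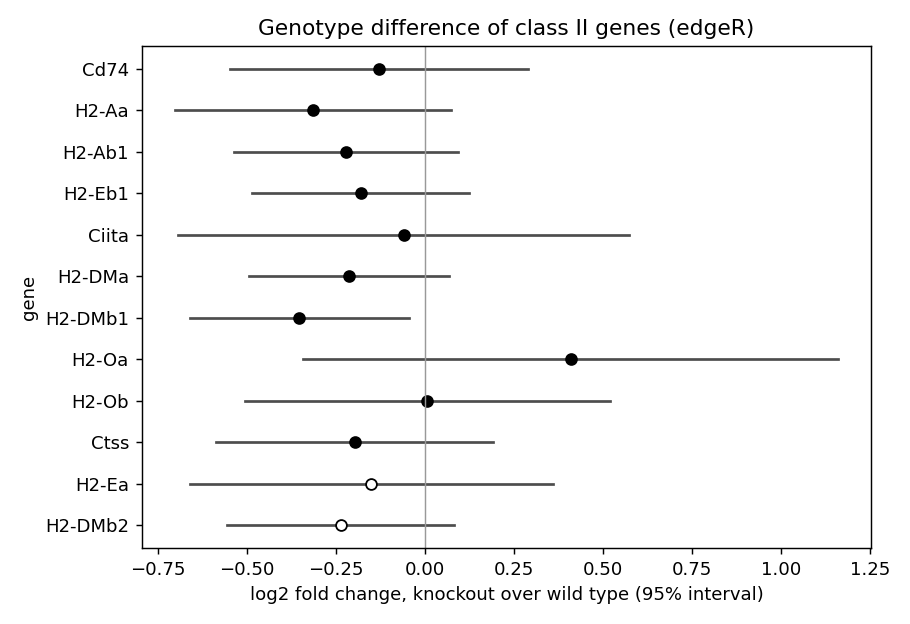
Log2 fold change, knockout over wild type, of the 10 members (filled) and of H2-Ea and H2-DMb2 (open), with 95% intervals from the edgeR fit. The interval of H2-DMb1 ends below 0 before adjustment, and no gene is called after adjustment over all genes.

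Ordered by TPM over all 8 libraries, the members ran from Cd74 at 2061 ± 479 (SD, n = 8), through H2-Eb1 (969 ± 159), H2-Aa (969 ± 224), H2-Ab1 (835 ± 150.5) and Ctss (370.5 ± 77.7). Then came H2-DMa (88.0 ± 14.7), H2-DMb1 (70.1 ± 14.8), Ciita (16.1 ± 5.63), H2-Ob (4.40 ± 1.17) and H2-Oa (2.29 ± 0.819). H2-Eb1 and H2-Aa did not differ beyond their spread, with H2-Eb1 higher in 4 of 8 libraries. H2-Aa and H2-Ab1, H2-DMa and H2-DMb1, and H2-Ob and H2-Oa had overlapping ranges, but the first of each pair was higher in 8 of 8 libraries. The other neighbours did not overlap.

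Within each genotype the members moved together from library to library. In wild type all 10 members lay above their genotype mean of log2 CPM in replicates 2 and 3 and below it in replicates 1 and 4. In knockout all 10 lay above it in replicate 3, 8 in replicate 1, and 1 each in replicates 2 and 4. Between 48.7% and 52.6% of all tested genes lay above the mean in any library, and the median deviation of all tested genes was between -0.01 and 0.01. Knockout replicate 3 was the highest knockout library for 7 members and knockout replicate 4 the lowest for 8. In wild type the highest was replicate 3 for 6 members and replicate 2 for 4, and the lowest was replicate 1 for 8 and replicate 4 for 2. H2-Oa stood apart in knockout, where it was highest in replicate 4 at a deviation of 0.25, on 34 counts.

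**Figure D4:**
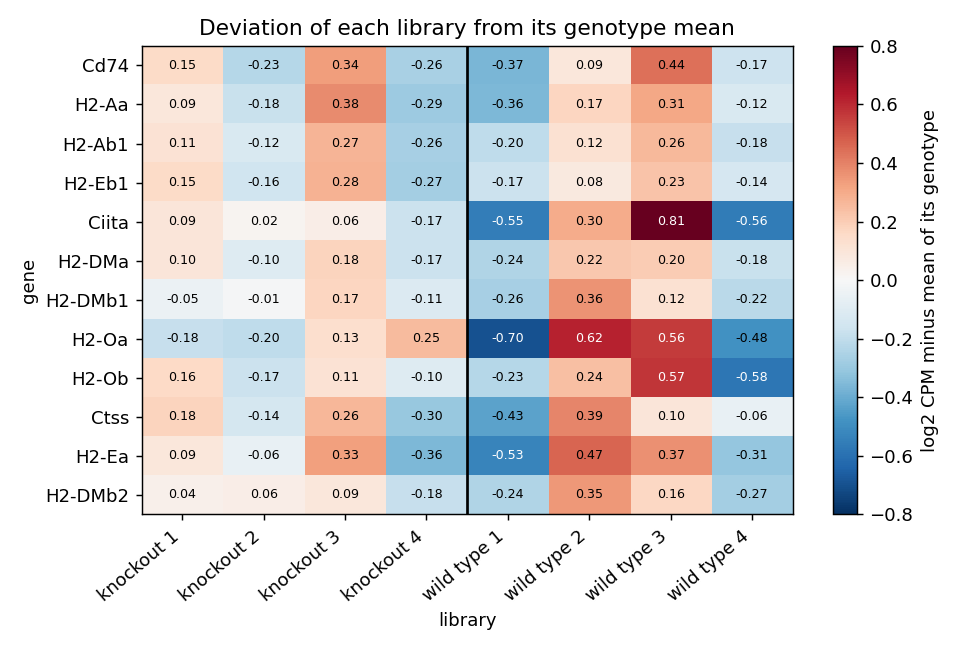
Log2 CPM of each library minus the mean of its genotype, for the 10 members and for H2-Ea and H2-DMb2. All 10 members are positive in wild-type replicates 2 and 3 and in knockout replicate 3, and negative in wild-type replicates 1 and 4.

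Over the 8 libraries all 45 pairs of members were positively correlated on log2 CPM, with a median Pearson's r of 0.76, and 42 stayed positive without the 2 libraries farthest from the median of 1 gene of the pair. After adjustment over the 45 pairs 21 passed by Pearson's r and 20 by Spearman's rho, by exact permutation over all 40320 pairings (two-sided). The libraries share depth and scaling between genes, and 4 libraries a genotype are too few for a correlation within one. H2-Ab1 and H2-Eb1 were the closest pair, with Pearson's r = 0.99 (exact permutation p = 7.44e-05, adjusted p = 0.00149) and Spearman's rho = 0.98 (exact permutation p = 0.000397, adjusted p = 0.00298). Without the 2 libraries farthest from the median of H2-Ab1, knockout replicate 4 and wild-type replicate 3, r was 0.97. Cd74 and H2-Aa gave Pearson's r = 0.92 (exact permutation p = 0.00191, adjusted p = 0.00781) and Spearman's rho = 0.93 (exact permutation p = 0.00223, adjusted p = 0.00717), and r was 0.85 without those 2 libraries.

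Ciita, the transactivator, had H2-Ob as its closest partner, with Pearson's r = 0.93 (exact permutation p = 0.000422, adjusted p = 0.00316) and Spearman's rho = 0.98 (exact permutation p = 0.000397, adjusted p = 0.00298); r was 0.84 without wild-type replicates 3 and 4. Ciita and Cd74 gave Pearson's r = 0.77 (exact permutation p = 0.0228, adjusted p = 0.0488) and Spearman's rho = 0.76 (exact permutation p = 0.0368, adjusted p = 0.0662), and r was 0.62 without knockout replicate 4 and wild-type replicate 3. Ciita and H2-Aa gave Pearson's r = 0.60 (exact permutation p = 0.113, adjusted p = 0.159) and Spearman's rho = 0.64 (exact permutation p = 0.0962, adjusted p = 0.131). For that pair r was 0.38 without the same libraries, and the difference between these correlations was not tested. H2-DMa and H2-DMb1, the chains of 1 molecule, gave Pearson's r = 0.91 (exact permutation p = 0.00236, adjusted p = 0.00884) and Spearman's rho = 0.86 (exact permutation p = 0.0107, adjusted p = 0.0268), and r was 0.67 without wild-type replicates 2 and 3. Ctss passed with 6 partners, and with H2-Aa it gave Pearson's r = 0.89 (exact permutation p = 0.00496, adjusted p = 0.0149) and Spearman's rho = 0.93 (exact permutation p = 0.00223, adjusted p = 0.00717), with r = 0.92 without knockout replicate 4 and wild-type replicate 3. H2-Oa passed with 0 of its partners, and the highest of its r values was 0.77, with Ciita (exact permutation p = 0.0285, adjusted p = 0.0557). On deviations from the genotype means, which remove the genotype difference, r was 0.99 for H2-Ab1 and H2-Eb1, 0.93 for Ciita and H2-Ob and 0.74 for Ciita and H2-Aa, given as a description.

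The spread of the members was larger in wild type for 7 of 10, and 73.9% of all tested genes had the larger spread there too. The widest contrast was in Ciita, with an SD of log2 CPM of 0.12 in knockout and 0.67 in wild type; its highest wild-type library had 2.60 times the CPM of its lowest, and in knockout the ratio was 1.20. H2-Oa (0.23 in knockout and 0.69 in wild type) and H2-Ob (0.16 in knockout and 0.51 in wild type) had the larger SD in wild type too. Among the surface chains the SD of H2-Aa was 0.30 in knockout and 0.30 in wild type, and that of H2-Eb1 was 0.26 in knockout and 0.19 in wild type. The median SD over the members was 0.23 in knockout and 0.32 in wild type, against 0.14 in knockout and 0.22 in wild type over all tested genes. The biological coefficient of variation in edgeR was 27.9% for Ciita, above 97.7% of genes within 1 log2 CPM of it. For H2-Eb1 it was 14.6%, above 78.9% of such genes. The difference in spread between genotypes was not tested.

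Some, not most, marker genes of the cells that make class II followed the members from library to library. Likeness was measured as Pearson's r of deviations from the genotype means over the 8 libraries, against the mean deviation of Cd74, H2-Aa, H2-Ab1 and H2-Eb1, and is given as a description. Cd207, the gene of langerin, which marks Langerhans cells and is named here after its values were seen, had r = 0.95, the highest of the 5 Langerhans cell genes. It stood at 39.1, 32.3, 39.3 and 26.6 CPM in knockout replicates 1 to 4, against 26.0, 35.1, 39.9 and 25.8 CPM in wild-type replicates 1 to 4, and its genotypes overlapped. Csf1r, the receptor gene of macrophages and Langerhans cells, had r = 0.94 and 282, 229, 347 and 235 CPM in knockout replicates 1 to 4, against 231, 294, 427 and 272 CPM in wild-type replicates 1 to 4. The other three genes of the Langerhans cell list did not follow, with r = 0.32 for Ly75, -0.29 for Epcam and -0.46 for Cd24a. In the macrophage list r ran from -0.68 for Lyve1 to 0.96 for Ms4a7, with -0.62 for the Fc receptor gene Fcgr1 and 0.92 for Adgre1. For the complement genes C1qa, C1qb and C1qc it was -0.07, -0.13 and 0.05. All of these were named after their values were seen. Over r = 0.8 were 5 of 16 ranked genes of the dendritic cell list (list median 0.60), 6 of 16 of the macrophage list (0.45) and 2 of 5 of the Langerhans cell list (0.32). The same held for 4 of 15 genes of the general haematopoietic list (0.54), 2 of 12 of the T and natural killer cell list (-0.34) and 0 of 4 of the B cell list (0.38). It held for 1 of 21 of the white adipocyte list (0.09) and 0 of 23 genes of class I presentation (-0.31). It held for 0 of 16 of the interferon-gamma list (-0.23) and 0 of 12 keratinocyte genes (-0.62). Of all 15176 genes ranked, 9 members included, 3.07% were over r = 0.8 (median -0.05). Genes under a mean log2 CPM of 1 were not ranked. The part of cell number in the library-to-library pattern was not tested.

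Outside the members, the 10 genes most like the surface chains and Cd74 among 15167 ranked genes were Selenop, Cd209e, Ptprj, Aph1b, Kmo, C7, Gpr141b, Bco1, Selenbp1 and Gk5, with r between 0.97 and 0.99. Cd209e encodes a C-type lectin of the DC-SIGN family and Selenop a secreted selenium carrier. Neither passed the test between genotypes: Selenop had a log2 fold change of -0.72 (edgeR adjusted p = 0.156) and Cd209e of 0.60 (adjusted p = 0.0696). Among the other class II chains, r was 0.90 for H2-Ea and 0.73 for H2-DMb2.

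Between genotypes, the marker lists of the presenting cells did not move one way; values with an SE for list genes are log2 fold changes from the edgeR fit. Over all genes tested 1.41% were called. The Langerhans cell list summed to 522 to 648 CPM in knockout and 572 to 760.2 CPM in wild type, with no member at 0. Its median log2 fold change was -0.16, and 1 of 5 passed: Epcam, an adhesion gene that keratinocytes and follicle cells also express, fell to 130.2 ± 3.22 CPM in knockout, against 165 ± 10.6 CPM in wild type (SD, n = 4 each; adjusted p = 0.0483 in edgeR). Cd24a, also a keratinocyte gene, stood at -0.29 ± 0.10 and the endocytic receptor gene Ly75 at 0.16 ± 0.19 (SE), neither called. The dendritic cell list summed to 764 to 979 CPM in knockout and 669 to 847 CPM in wild type, at a median of -0.08. Of its 17 genes 1 passed, Mgl2, a lectin gene of dermal dendritic cells and macrophages, which rose to 163 ± 26.4 CPM in knockout, against 95.2 ± 5.28 CPM in wild type (adjusted p = 0.0151 in edgeR). Batf3, a factor of cross-presenting dendritic cells, stood at -0.91 ± 0.21 (SE), Naaa at 0.33 ± 0.10 and the lectin gene Cd209a at 0.49 ± 0.16, none called. The macrophage list had a median of 0.16, sums of 3142 to 4385 CPM in knockout and 2869 to 3581 CPM in wild type, and 1 of 16 genes called, the mannose receptor gene Mrc1 at 0.58 ± 0.12 (adjusted p = 0.0483 in edgeR). F13a1, a gene of resident macrophages, stood at 0.73 ± 0.16 and Lyz2, the lysozyme gene, at -0.56 ± 0.18, neither called. Lyve1 averaged 210.0 ± 31.3 CPM in knockout and 74.0 ± 62.6 CPM in wild type (SD, n = 4 each) and was not called. The general haematopoietic list had a median of 0.04 and 1 of 15 genes called, Cd52, a surface glycoprotein gene, at -0.56 ± 0.12 (adjusted p = 0.0481 in edgeR). The calls of Epcam, Mrc1 and Cd52 each held in 1 of 8 fits with a library left out, without wild-type replicate 3, and that of Mgl2 in 7, being lost without knockout replicate 2 (adjusted p = 0.0641).

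B cells express H2-DO and the other class II genes, and their defining marker Ms4a1 was near 0. Ms4a1, the gene of CD20, had 0, 1, 1 and 0 counts in knockout and 8, 9, 8 and 6 counts in wild type. It was named after its values were seen and was not tested. Of 12 listed genes 6 were tested and 0 called, at a median of -0.43, where 1.41% of all genes tested were called. Cd79b stood at -0.95 ± 0.36, Ighd at -0.80 ± 0.30 and Blnk at -0.29 ± 0.09, none called. Ighm, the heavy chain gene of IgM, was high in the wild-type libraries in which H2-Ob and Ciita were high. It had 50.4, 50.1, 53.5 and 44.4 CPM in knockout replicates 1 to 4, against 44.7, 81.4, 78.2 and 45.6 CPM in wild-type replicates 1 to 4. Other B cell genes were mixed. Blnk had 35.5, 40.6, 42.0 and 35.7 CPM in wild-type replicates 1 to 4. Cr2 and Ms4a1 were also higher in wild-type replicates 2 and 3 than in 1 and 4, on at most 12 counts a library. In wild-type replicate 2 Cd79b, Cd79a and Jchain were at their lowest of the 4 wild-type libraries, with 0.553, 0.0791 and 0.988 CPM, Cd79a on 2 counts. Cr2, Cd79a and Jchain were named after their values were seen. The summed list lay between 83.8 and 91.0 CPM in knockout and between 89.4 and 133 CPM in wild type; the part of B cells in the H2-Ob pattern was not tested.

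Of 16 tested genes of class II transcription 2 passed, 1 lower and 1 higher in knockout. Irf1, which interferon gamma induces and which binds a Ciita promoter, fell to 51.0, 47.2, 44.6 and 50.4 CPM in knockout, against 79.9, 58.4, 81.0 and 71.8 CPM in wild type. The groups did not overlap, and the fold change was -0.59 ± 0.11 (SE, edgeR adjusted p = 0.0335). Irf4, a factor of dermal dendritic cells and of some macrophages, rose to 60.7, 61.1, 86.0 and 70.5 CPM in knockout, against 36.7, 48.2, 42.4 and 40.5 CPM in wild type. Its fold change was 0.73 ± 0.13 (adjusted p = 0.0284 in edgeR). Over all tested genes 0.712% were called higher and 0.702% lower. The kinase gene Jak1 stood at 0.24 ± 0.08, not called. The X and Y box factors did not pass, with Rfx5 at -0.21 ± 0.12, Rfxap at -0.17 ± 0.11, Rfxank at -0.14 ± 0.12, Nfya at 0.17 ± 0.08, Nfyb at -0.16 ± 0.12, Nfyc at -0.14 ± 0.11 and Creb1 at 0.02 ± 0.08, named after their values were seen. Ifng itself, named after its values were seen, had 4, 1, 2 and 4 counts in knockout and 17, 7, 6 and 6 counts in wild type and was not tested. The call of Irf1 held in 2 of 8 fits with a library left out, without wild-type replicate 2 or 3, and that of Irf4 in 4, without knockout replicate 1 or 3 or wild-type replicate 2 or 3. Over these fits the highest adjusted p of Irf1 was 0.118 and that of Irf4 was 0.108.

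Among genes that interferon gamma induces all 16 tested were below 0, against 53.3% of all genes, at a median of -0.39, and 3 were called lower: Gbp4, Irf1 and Cxcl9. Gbp4, a guanylate-binding protein gene, fell to 49.0, 48.4, 43.3 and 57.5 CPM in knockout, against 79.5, 72.8, 90.2 and 74.6 CPM in wild type (-0.68 ± 0.10, edgeR adjusted p = 0.017). Cxcl9, a chemokine gene that draws T cells, fell to 6.79, 5.62, 6.41 and 5.76 CPM in knockout, against 14.5, 7.55, 12.8 and 14.0 CPM in wild type (-0.99 ± 0.19, edgeR adjusted p = 0.0416). All 16 stayed below 0 with any library left out, while the number called was 0 without knockout replicate 1 or 2, 1 without knockout replicate 3 or 4 or wild-type replicate 1 or 4, 4 without wild-type replicate 2 and 5 without wild-type replicate 3. The call of Gbp4 held in 6 of 8 of these fits, being lost without knockout replicate 1 or 2, and that of Cxcl9 in 2, without wild-type replicate 2 or 3. Tgtp1, a GTPase gene, stood at -0.78 ± 0.17, not called. The list of T and natural killer cells, which make interferon gamma, had 13 of 15 below 0 at a median of -0.73 and 2 called lower, the adhesion gene Cd2 and the natural killer receptor gene Ncr1. Over all genes tested 0.702% were called lower. The granule genes Nkg7 and Gzma stood at -0.90 ± 0.19 and -1.30 ± 0.31, neither called. The call of Cd2 held in 2 of 8 fits with a library left out, without knockout replicate 3 or wild-type replicate 3, and that of Ncr1 in 3, without these or wild-type replicate 2. Their part in the values of the class II genes was not tested.

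Class I presentation, which every nucleated cell carries, had 0 of 23 genes called, 19 below 0 and a median of -0.22. At an unadjusted p under 0.05 there were 10 of 23, against 19.5% of all genes tested. Of all genes tested 53.3% lay below 0 and 1.41% were called. The heavy chain gene H2-K1 had 763, 825, 767 and 765 CPM in knockout replicates 1 to 4, against 1029, 935, 933 and 928 CPM in wild-type replicates 1 to 4, at -0.29 ± 0.09 (adjusted p = 0.111 in edgeR), and its genotypes did not overlap. H2-T22 stood at -0.31 ± 0.08, H2-T23 at -0.35 ± 0.10 and the immunoproteasome gene Psmb9 at -0.46 ± 0.13, none called. Groups did not overlap for 8 of 23 class I genes and 8 of 16 interferon-gamma genes, for 0 of 10 class II members and for 11.5% of all genes; the difference between lists was not tested. White adipocyte genes summed to 7649.9 to 9878 CPM in knockout and 5327 to 9509.6 CPM in wild type. With the mean of that list as a covariate the median of the class II members was -0.25, that of class I genes -0.25 and that of interferon-gamma genes -0.39, and none of these genes was called. Only 2 of all genes tested were called in that fit, so the absence of calls says little about these lists.

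**Figure D5:**
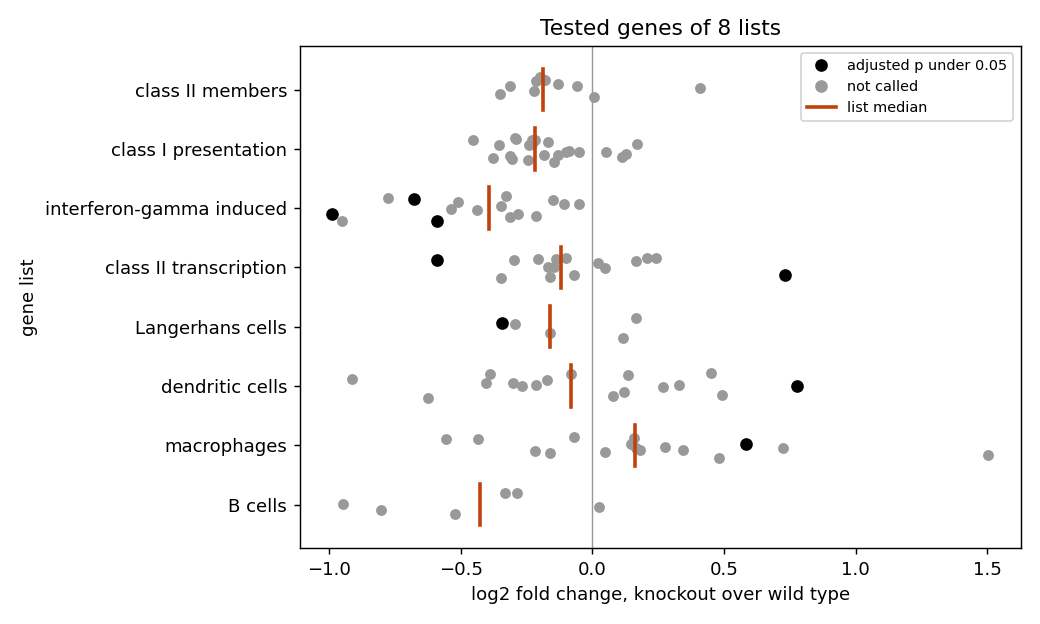
Log2 fold change, knockout over wild type, of the tested genes of 8 lists; black points are called at an adjusted p under 0.05 and the bars are list medians. Class II members spread around a median of -0.19 with none called, and all 16 interferon-gamma genes lie below 0.

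Proteases and other genes of class II processing and turnover gave 0 of 12 called, with 6 above and 6 below 0. Of all genes tested 1.41% were called and 11.5% did not overlap between genotypes. Cst3, the gene of cystatin C, an inhibitor of cathepsins, had 469, 532, 594 and 456 CPM in knockout replicates 1 to 4, against 720.2, 720.0, 652 and 739.9 CPM in wild-type replicates 1 to 4; its genotypes did not overlap, at -0.47 ± 0.10 (adjusted p = 0.0562 in edgeR). Ifi30, a lysosomal thiol reductase gene induced by interferon gamma, stood at -0.32 ± 0.14, and the cathepsin genes Ctsd and Ctsl at -0.19 ± 0.10 and -0.15 ± 0.08. Of 8 tested co-stimulation genes 0 were called. Cd86, which dendritic cells raise on activation, had 23.6, 17.6, 24.6 and 16.8 CPM in knockout replicates 1 to 4, against 18.3, 38.6, 25.2 and 20.2 CPM in wild-type replicates 1 to 4, and Cd83 stood at -1.12 ± 0.49, with knockout replicate 3 at 20.7 CPM and the other three knockout libraries at 4.39, 6.69 and 6.02 CPM. Icosl stood at 0.33 ± 0.10 and Cd80 at 0.36 ± 0.16.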

How the data were processed

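The values are raw read counts per gene in 8 libraries, whole numbers with no normalization, as deposited by the authors. The submitters' processing notes name GSNAP, featureCounts 1.6.2 and the mm10 build. How counting treated strand and reads with several matches is not stated there. The summed exon length per gene is another column, per the file headers. Of 49763 rows, 92 spike-ins with at most 1 read in any library were left out. Symbols were matched by gene identifier to the GENCODE annotation of the same build (49326 of 49671). Library totals were 18483242 to 38545957 counts. Promoter sequences are RefSeq's, GRCm38.p6.

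Genes were kept with filterByExpr (19099), scaled with TMM and tested with edgeR 4.0.16 (R 4.3.3, quasi-likelihood, robust, genotype as the only term). P-values were adjusted by Benjamini-Hochberg over all genes, and genes were called under 0.05. SE and intervals come from the F statistic. Log2 CPM had a prior count of 2. Permutation tests were exact, and the steps were tested on simulated data. Alternatives were other scaling, other filters, DESeq2 1.42.0, limma 3.58.1 voom, an adipocyte covariate and each library left out. Members and lists were chosen with earlier results of these data known. All 10 members are described, with up to 4 genes of smallest p per other list and the 10 genes most like the surface chains; exceptions are marked, and some genes of the lists are not reported here. Replicate numbers follow accession order and pair nothing.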

Additional observations from a re-analysis of the deposited data

How the results depend on the processing

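No member was called under any of the 16 alternatives, and the direction of H2-Aa, H2-Ab1, H2-Eb1, H2-DMa, H2-DMb1, Ctss and H2-Oa held in each one that gave a value (H2-Oa was filtered out at a mean of at least 1 CPM). Their values moved: H2-Aa was between -0.45 and -0.20, H2-Ab1 -0.32 and -0.12, H2-Eb1 -0.28 and -0.09, H2-DMa -0.29 and -0.14, H2-DMb1 -0.44 and -0.22, H2-Oa 0.18 (without wild-type replicate 1) and 0.87 (limma voom), and Ctss -0.32 and -0.05 (covariate, and without wild-type replicate 2). Signs near 0 turned for others: Cd74 was between -0.250 and 0.0437 with 1 library left out (0.0437 without wild-type replicate 3), Ciita between -0.231 and 0.278, H2-Ea between -0.304 and 0.0159, and H2-Ob between -0.157 and 0.230. Limma voom gave Ciita 0.34 and H2-Ea 0.0154, and the adipocyte covariate gave Ciita -0.46. H2-Ob was -0.00299 with upper-quartile factors, -0.0166 with library totals and -0.27 with the adipocyte covariate. The causes were not tested.

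Genes called over the transcriptome (270) were 502 with no filter, 1185 with DESeq2, 2535 with limma voom, 2 with the adipocyte covariate and 11 to 1325 with 1 library left out (77, 11, 129 and 15 without knockout replicates 1 to 4, and 63, 504, 1325 and 62 without wild-type replicates 1 to 4). Called genes of all lists (11) were 7 with RLE factors, 20 with no filter, 39 with DESeq2, 51 with limma voom, 0 with the covariate and 1, without knockout replicate 2, to 40, without wild-type replicate 3. The number of correlated pairs (21) was 21 or 22, and the median SD of the members was 0.220 to 0.239 in knockout and 0.320 to 0.334 in wild type. H2-Oa is limited by 13 to 35 counts a library. No paired analysis was possible because the labels give no replicate numbers.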
